A study of Homo sapiens with 6 samples.

Results

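The nuclear-encoded genes of the respiratory chain and ATP synthase were read across 6 messenger RNA libraries of the established human glioblastoma cell line LN229. Members were all protein-coding genes of GENCODE 29 outside the mitochondrial chromosome whose symbols begin with NDUF, UQCR, ATP5 or COX followed by 4 to 8, or are SDHA, SDHB, SDHC, SDHD or CYC1. This rule names 100 genes, of which 98 are among the 33890 genes listed; COX4I2 and NDUFC2-KCTD14 are not. Of these 98, 84 encode subunits (37 of complex I, 4 of complex II, 9 of complex III, 17 of complex IV and 17 of complex V), 8 are the NDUFAF assembly factors of complex I, 5 are related genes and 1 is a read-through gene. The control group held 3 libraries of untreated LN229 cells. The other 3 came from LN229 cells given 800 µM ursodeoxycholic acid (UDCA), a bile acid given to patients with cholestasis, for 48 h. Both groups were grown in the same serum-supplemented medium, and no other agent or genetic change is named in the labels.

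The respiratory chain sits in the inner mitochondrial membrane. Complexes I and II pass electrons from NADH and succinate to coenzyme Q, complex III passes them on to cytochrome c, and complex IV (cytochrome c oxidase) hands them to oxygen. Complexes I, III and IV pump protons, and complex V (ATP synthase) lets the protons return and makes ATP. Complexes I, III, IV and V join subunits from the mitochondrial genome with subunits from nuclear genes, while complex II is wholly nuclear-encoded. Assembly factors help to build a complex without being part of the finished enzyme.

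Levels are in FPKM, reads scaled by merged exon length and by the library's total. Merged length counts every annotated exon of a gene, so levels of different genes can be compared only roughly. ATP5F1A (10908 bases) and ATP5F1B (2322 bases) had 19760 and 36142 control reads but 35.1 and 302 FPKM. Sums and shares over genes carry the same limit. The reads recovered from the values came to between 15988951 and 17743022 per library, and 3 reads in a gene of 1 kb correspond to 0.169 to 0.188 FPKM. Log2 differences (UDCA minus control) were taken on log2(FPKM + 1), a scale that understates changes near or under 1 FPKM; folds are ratios of group means, and a value with ± is a mean with its SD (n = 3). A gene was called at an adjusted p under 0.05 in limma's moderated test over the 14380 genes that reached 1 FPKM in 3 or more libraries. Whether replicate libraries were made from separate cultures is not in the labels, and the p-values then measure only the spread between these libraries, possibly a technical one. Of the 8 glial and glioma markers, 6 could be tested and 5 were lower with UDCA, where 35.7% of all genes tested were lower. GFAP and SOX9 stayed under 1 FPKM on average in both groups. VIM went from 167 to 65.1 FPKM, S100B from 286 to 12.5 FPKM and SOX2 from 76.97 to 2.58 FPKM, whereas OLIG2 averaged 4.59 and 4.81 FPKM. All 7 leukocyte, endothelial and epithelial markers had group means under 0.1 FPKM, with CDH5 and CDH1 at 0 in control and CD3E at 0 with UDCA. The part of the falling glial markers in the results below was not tested.

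The promoters of these genes are known for sites of the factors NRF1 and GABPA, and RefSeq promoters were found by symbol for 77 of the 98 members (build GRCh38.p14, 250 bases before to 50 after the RefSeq start). The NRF1 consensus motif, a near-palindrome of GC-rich letters searched on both strands, stood in 18 of 77 windows, 23.4%, against 6.29% of all 27305 windows and 8.57% of windows of protein-coding genes. The ETS letters CCGGAAG (both strands, as for the next motifs), which GABPA binds, stood in 21 of 77 (27.3%, against 10.7% of all windows and 14.2% of those of protein-coding genes), and the YY1 letters AAGATGGC in 11 of 77 (14.3%, against 3.03% and 3.91%). TGATGCAA, the core of the composite element bound by CHOP and ATF4, stood in 0 of 77, against 0.923% of all windows and 0.669% of those of protein-coding genes. A match describes letters in a window and does not show that a factor binds there. Among members called lower, 8 of 32 windows held the NRF1 letters and 8 of 32 the ETS letters; among members called higher, 2 of 17 and 4 of 17 did, and among those not called or not tested 8 of 28 and 9 of 28. The 250 bases before the start are shown for 7 members described below, 5 that fell and 2 that rose (NDUFAF2 and NDUFAF4), with matches to the NRF1 or ETS letters in capitals. These 7 were picked by hand as examples, so how many of them hold a match says nothing about the shares above.
SDHA (chr5:218070-218319, plus strand): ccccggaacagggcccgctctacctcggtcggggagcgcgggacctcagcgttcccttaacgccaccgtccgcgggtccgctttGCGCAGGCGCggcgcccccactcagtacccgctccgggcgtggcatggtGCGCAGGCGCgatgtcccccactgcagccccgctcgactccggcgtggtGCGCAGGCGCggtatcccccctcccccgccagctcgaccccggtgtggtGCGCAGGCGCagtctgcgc
UQCRC1 (chr3:48609647-48609896, minus strand): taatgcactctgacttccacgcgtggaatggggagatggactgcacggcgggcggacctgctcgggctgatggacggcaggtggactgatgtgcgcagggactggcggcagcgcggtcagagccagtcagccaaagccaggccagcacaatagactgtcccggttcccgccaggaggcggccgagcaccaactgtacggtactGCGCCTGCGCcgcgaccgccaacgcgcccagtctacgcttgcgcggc
UQCRH (chr1:46303448-46303697, plus strand): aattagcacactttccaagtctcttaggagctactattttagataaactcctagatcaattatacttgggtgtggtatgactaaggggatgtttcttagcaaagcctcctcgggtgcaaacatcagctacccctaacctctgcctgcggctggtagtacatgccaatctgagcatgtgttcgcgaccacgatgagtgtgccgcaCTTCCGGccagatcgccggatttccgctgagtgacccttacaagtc
ATP5F1C (chr10:7787927-7788176, plus strand): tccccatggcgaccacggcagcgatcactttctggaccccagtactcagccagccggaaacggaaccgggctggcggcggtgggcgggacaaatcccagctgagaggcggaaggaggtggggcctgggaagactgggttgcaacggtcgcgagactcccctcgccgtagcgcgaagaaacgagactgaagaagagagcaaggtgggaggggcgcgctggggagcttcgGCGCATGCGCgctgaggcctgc
ATP5F1A (chr18:46104228-46104477, minus strand): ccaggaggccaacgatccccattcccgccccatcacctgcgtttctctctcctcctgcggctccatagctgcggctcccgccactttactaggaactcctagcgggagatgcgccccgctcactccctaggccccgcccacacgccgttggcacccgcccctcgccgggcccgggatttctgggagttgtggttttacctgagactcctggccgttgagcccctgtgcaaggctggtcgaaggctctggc
NDUFAF2 (chr5:60944955-60945204, plus strand): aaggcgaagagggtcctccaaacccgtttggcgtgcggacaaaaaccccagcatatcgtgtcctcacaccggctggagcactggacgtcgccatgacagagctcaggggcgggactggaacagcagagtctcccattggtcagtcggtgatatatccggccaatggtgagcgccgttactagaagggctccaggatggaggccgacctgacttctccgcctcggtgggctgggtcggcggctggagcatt
NDUFAF4 (chr6:96897892-96898141, minus strand): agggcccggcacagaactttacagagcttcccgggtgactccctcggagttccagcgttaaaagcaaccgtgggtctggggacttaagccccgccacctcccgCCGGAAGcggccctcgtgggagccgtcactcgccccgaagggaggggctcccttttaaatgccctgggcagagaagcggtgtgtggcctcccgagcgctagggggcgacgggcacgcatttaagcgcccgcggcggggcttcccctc
The SDHA stretch holds 4 NRF1 matches. The NRF1 match begins 47 bases before the start of UQCRC1 and 22 bases before that of ATP5F1C, and the ETS match begins 46 bases before the start of UQCRH and 147 before that of NDUFAF4. The stretches of ATP5F1A, a subunit that fell, and of NDUFAF2, the assembly factor with the largest rise, hold neither.

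Nuclear respiratory chain genes were more often lower than higher in treated cells, mostly by less than 1.5-fold on the log2(FPKM + 1) scale. Of the 85 members tested, 20 rose, 43 fell and 22 were not called, where 45.1% of all genes tested rose and 35.7% fell (80.8% in either direction). Of the 85, 4 passed the filter through 1 group only (NDUFA13, NDUFC2, NDUFA4L2 and ATP5PO), having no library of the other group at 1 FPKM or more. The median member differed by -0.16 on the log2 scale and the median of all genes tested by 0.10; with libraries scaled by the median ratio of genes these were -0.25 and 0.02. In 63 of the 85 members the values of the 2 groups did not overlap, against 82.8% of all genes tested. At least a 1.5-fold difference on the log2(FPKM + 1) scale was reached by 8 members that rose and 10 that fell, where 25% and 20.5% of all genes tested did. The 73 tested subunits held 14 rises and 41 falls with a median of -0.21, and the 8 NDUFAF assembly factors 4 rises and 1 fall with a median of 0.25. In a bulk library a change of level in every cell and a change in which cells make up the culture cannot be told apart.

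**Figure D1:**
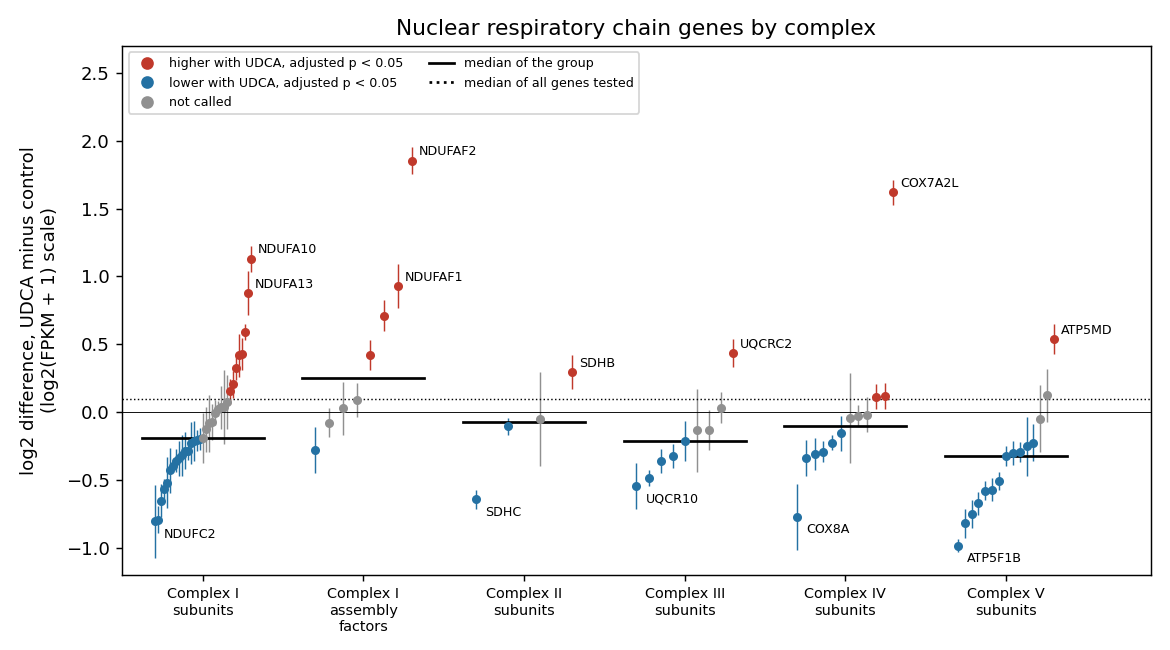
Log2 difference on the log2(FPKM + 1) scale, UDCA minus control, for each tested subunit by complex and for the 8 NDUFAF assembly factors; points are genes, vertical bars their 95% intervals, horizontal bars the median of each group and the dotted line the median of all genes tested. Most subunits of complex V lie under 0, NDUFAF2, COX7A2L and NDUFA10 lie highest, and related genes such as NDUFA4L2 are not drawn.

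Complex by complex, the summed level of nuclear subunits was furthest below control for ATP synthase and nearest to it for complexes II and IV. Subunits encoded by the mitochondrial genome, given further below, are not in these sums. The 17 listed subunits of complex V summed to 666, 670.3 and 652 FPKM in the control libraries and to 432, 435 and 447 FPKM in the UDCA libraries, so that the mean sum with UDCA was 66.1% of control. Complex III went from 345 ± 6.97 to 275 ± 4.14 FPKM (79.8% of control) and complex I from 937 ± 29.3 to 829.7 ± 6.92 FPKM (88.5%). In complexes I, III and V, and narrowly in complex II, every UDCA library lay under every control library. Complex IV went from 463 ± 19.5 to 447 ± 11.7 FPKM (96.6%), and its groups overlapped. That sum counts COX7A2L, which rose from 14.2 to 45.8 FPKM, by more than the sum fell. Without this gene the complex IV sum lies further below control, at a percentage near that of complex I, and its groups do not overlap. Complex II, the smallest sum, went from 56.0 ± 0.493 to 54.4 ± 1.53 FPKM (97.2%), with 55.3 FPKM in the highest UDCA and 55.5 FPKM in the lowest control library. Such a sum follows its member with the highest FPKM: ATP5F1B made up 45.5% of the control sum of complex V, SDHB 40.4% of complex II, UQCRH 38.2% of complex III, NDUFS5 21.3% of complex I and COX6B1 14.4% of complex IV. ATP5F1B alone went from 302 to 152 FPKM, most of the fall of the complex V sum. Without it that sum lies at a percentage of control near that of the full complex III sum. Scaling by the median ratio of genes, which multiplies each library by 1 factor and so keeps the order of the complexes, gave lower percentages: 62.0 for V, 74.9 for III, 83.1 for I, 90.7 for IV and 91.2 for II.

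**Figure D2:**
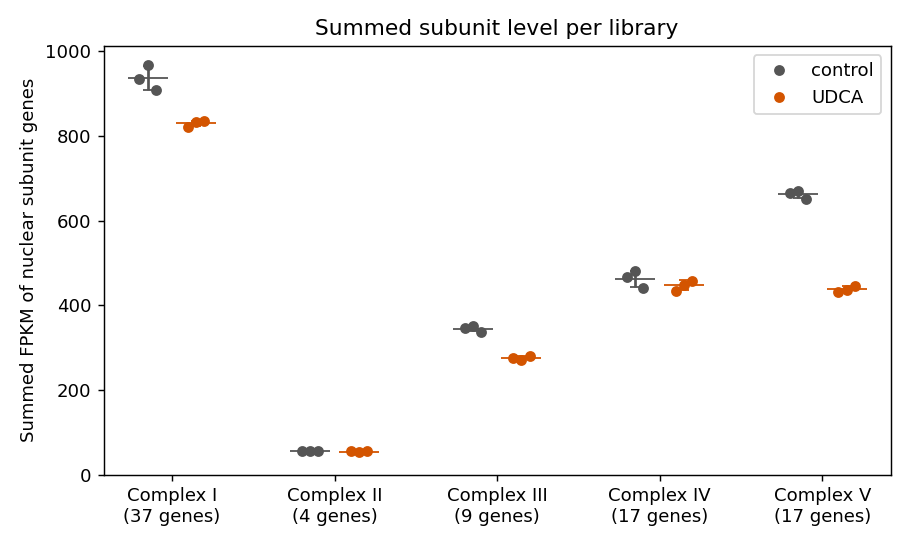
Sum of FPKM over the listed nuclear subunits of each complex, one point per library, with the mean and SD of each group (n = 3). The UDCA libraries lie under the control libraries for complexes I, III and V, narrowly so for complex II, and overlap them for complex IV, whose sum counts COX7A2L.

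In complex V, 12 of 15 tested subunits fell, 1 rose and 2 were not called, with a median log2 difference of -0.33 (-0.51 by voom on recovered reads). All 5 subunits of F1, the catalytic head, fell, with a median of -0.58. ATP5F1B (chromosome 12, 56638175 to 56646068, GRCh38), the catalytic beta subunit and the member with the highest FPKM, stood at 303, 303 and 299 FPKM in control libraries and 149.9, 150.1 and 155 FPKM in UDCA libraries (log2 difference -0.99, SE 0.02, adjusted p = 2.27e-08). The groups lie far apart and each holds close values; 36142 reads in control and 17617 with UDCA stand behind them. ATP5F1A, the alpha subunit that alternates with beta, went from 35.1 ± 0.642 to 23.1 ± 0.628 FPKM (log2 difference -0.58, adjusted p = 1.61e-06). The delta subunit of the central stalk, ATP5F1D, went from 25.9 ± 0.334 to 15 ± 0.899 FPKM and the epsilon subunit ATP5F1E from 35.2 ± 1.62 to 23.3 ± 0.283 FPKM. ATP5F1C, the gamma subunit that turns inside the head, changed least of the 5, from 51.3 ± 1.63 to 40.7 ± 0.868 FPKM (log2 difference -0.33, adjusted p = 4.56e-05).

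The rotor ring of ATP synthase is built of subunit c, which is encoded by a set of 3 genes that differ in their import sequences and give the same mature protein. All 3 fell, and unequally. ATP5MC3 (chromosome 2, 175176258 to 175184607) read 20.7, 20.9 and 19.7 FPKM in control libraries and 10.7, 10.9 and 11.9 FPKM in UDCA libraries (log2 difference -0.82, SE 0.046, adjusted p = 3.06e-06). ATP5MC1 read 23.4, 22.6 and 23.3 FPKM in control and 14.1, 13.6 and 14.7 FPKM with UDCA (log2 difference -0.67, adjusted p = 2.08e-06), and ATP5MC2 read 39.5, 39.97 and 37.2 FPKM in control and 31.4, 30.3 and 32.4 FPKM with UDCA (log2 difference -0.30, adjusted p = 0.000214). None of the 3 had overlapping groups. Their summed level went from 82.4 ± 1.83 to 56.6 ± 2.16 FPKM, and the share of ATP5MC2 in that sum was 46.4 to 47.9% in the control and 55.0 to 55.8% in the UDCA libraries. The share of ATP5MC3 went from 24.8% ± 0.240 to 19.7% ± 0.599 and that of ATP5MC1 from 28.0% ± 0.993 to 24.9% ± 0.198.

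In the peripheral stalk, which holds the head still, ATP5PB went from 57.8 ± 1.59 to 40.3 ± 0.692 FPKM (log2 difference -0.51, adjusted p = 2.5e-06), while ATP5PD and ATP5PF were not called (95% intervals of the log2 difference -0.07 to 0.32 and -0.30 to 0.20). ATP5PO, the connecting subunit OSCP, with 62.6% of its coding bases inside exons of another gene, was called lower, 1.16 to 0.808 FPKM (adjusted p = 0.0359). It passed the filter only through the control libraries, and the call did not hold when control replicate 2 (adjusted p = 0.106) or 3 (0.0631), or UDCA replicate 1 (0.099) or 2 (0.0984), was left out. Among the small membrane subunits ATP5MF and ATP5MPL fell. ATP5MD (chromosome 10, 103389041 to 103396492), also known as DAPIT and found where ATP synthase forms dimers, was the 1 riser of the complex, at 35.8, 38.2 and 35.99 FPKM in control libraries and 50.4, 54.7 and 56.04 FPKM in UDCA libraries (log2 difference 0.54, SE 0.046, adjusted p = 2.93e-05). Its lowest UDCA library lies well above its highest control library. ATP5IF1, which encodes the inhibitor that stops ATP synthase from running backwards, is no subunit and went from 34.04 ± 1.72 to 20.6 ± 2.21 FPKM (log2 difference -0.70, SE 0.076, adjusted p = 0.00011), a fall between those of ATP5MC1 and ATP5MC3 on the log2 scale. ATP5S, whose product has been linked to coupling of the enzyme, was not called, at 1.25 and 1.07 FPKM.

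**Figure D3:**
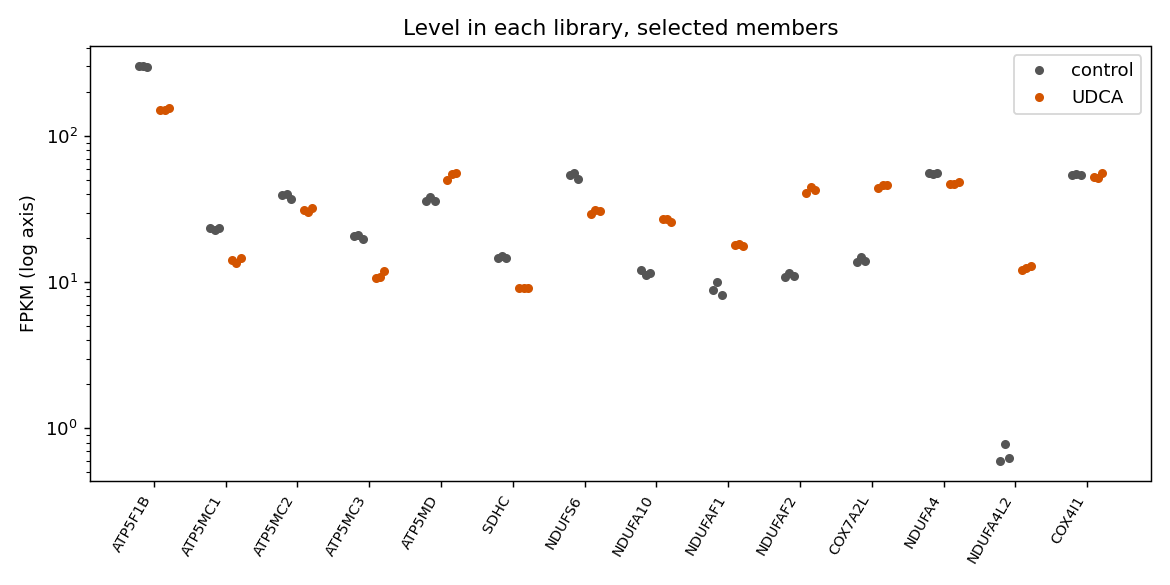
FPKM in each library for 14 members on a log axis, grey points for control and orange for UDCA. ATP5F1B and the 3 ATP5MC genes lie lower with UDCA, NDUFAF2, NDUFAF1, NDUFA10, COX7A2L and NDUFA4L2 lie higher, and the groups of COX4I1 overlap.

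In complex I, 16 of 33 tested subunits fell, 8 rose and 9 were not called, with a median of -0.19 (-0.12 without control replicate 2). Among the nuclear core subunits, which form the path of electrons from NADH to coenzyme Q, NDUFV1, NDUFS1 and NDUFS3 fell and NDUFS8 rose. NDUFV1, which binds NADH and flavin, went from 37.1 ± 1.46 to 32.2 ± 0.659 FPKM (log2 difference -0.20, adjusted p = 0.00117). NDUFS1, the largest subunit, went from 11.2 ± 0.172 to 9.59 ± 0.282 FPKM (log2 difference -0.21, adjusted p = 0.000865) and NDUFS3 from 13.01 ± 0.339 to 9.94 ± 0.333 FPKM (log2 difference -0.36, adjusted p = 7.82e-05). NDUFS8, which holds a pair of iron-sulfur clusters near the coenzyme Q site, rose from 13.5 ± 0.586 to 17.2 ± 0.374 FPKM (log2 difference 0.33, adjusted p = 0.000159). NDUFV2 and NDUFS7 did not reach 1 FPKM in 3 libraries and were not tested.

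The accessory subunits, which surround the core and hold it together, spread from -0.81 to 1.13. NDUFA10 (chromosome 2, 239892450 to 240025402), a membrane-arm subunit with a fold like nucleoside kinases, read 12.2, 11.3 and 11.5 FPKM in control libraries and 27.2, 27.3 and 25.7 FPKM in UDCA libraries (log2 difference 1.13, SE 0.04, adjusted p = 3.07e-07). It was 2.29-fold higher with UDCA, on 5723 and 12714 reads, and the groups are far apart. NDUFA12, a matrix-arm subunit, read 13.9, 14.3 and 14 FPKM in control and 21.7, 21.8 and 21.7 FPKM with UDCA (log2 difference 0.59, adjusted p = 6.94e-07). NDUFA13, also called GRIM-19, rose 2.95-fold from a low level, 0.751 ± 0.0564 to 2.22 ± 0.141 FPKM, on 105 and 301 reads, with 55.2% of its coding bases inside exons of another gene; it passed the filter only through the UDCA libraries. The largest falls were those of NDUFC2, NDUFS6 and NDUFB6. NDUFS6 (chromosome 5, 1801400 to 1816605), a zinc-binding subunit of the matrix arm, read 54.3, 55.8 and 50.6 FPKM in control libraries and 29.4, 31.3 and 30.5 FPKM in UDCA libraries (log2 difference -0.80, SE 0.042, adjusted p = 2.24e-06). NDUFB6, in the membrane arm, went from 30.9 ± 1.81 to 19.3 ± 0.889 FPKM (log2 difference -0.65, adjusted p = 1.85e-05), and NDUFC2 from 2.003 ± 0.367 to 0.713 ± 0.148 FPKM on 273 and 95 reads, with 76.9% of its coding bases so placed; it passed only through the control libraries. NDUFS5, the member of complex I with the highest FPKM, fell 1.22-fold and read 195, 206 and 199 FPKM in control and 167, 159.7 and 165 FPKM with UDCA. By position, the matrix arm held 4 rises and 6 falls among 12 tested subunits (median -0.14) and the membrane arm 4 rises and 10 falls among 20 (median -0.21). NDUFAB1, the acyl carrier protein found in both arms, was not called (95% interval -0.09 to 0.09).

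Among the 8 NDUFAF assembly factors of complex I, 4 rose, 1 fell and 3 were not called. The share that rose was 50%, near the 45.1% of all genes tested, and the share that fell was 12.5%, against 35.7%. NDUFAF2 (chromosome 5, 60945129 to 61153037), a paralog of NDUFA12 that holds its place until late in assembly, read 10.8, 11.6 and 11.1 FPKM in control libraries and 40.96, 45.05 and 42.8 FPKM in UDCA libraries (log2 difference 1.85, SE 0.042, adjusted p = 3.65e-08). It was 3.85-fold higher with UDCA, on 585 and 2186 reads. NDUFAF1, a member of the complex that builds the membrane arm, read 8.83, 10.03 and 8.12 FPKM in control and 18.03, 18.2 and 17.7 FPKM with UDCA (log2 difference 0.93, adjusted p = 1.27e-05), and its lowest UDCA library lies well above its highest control library. NDUFAF4, which acts early with NDUFAF3, went from 3.18 ± 0.0423 to 5.85 ± 0.291 FPKM (log2 difference 0.71, adjusted p = 8.3e-06). NDUFAF7, a protein arginine methyltransferase, went from 6.76 ± 0.418 to 9.38 ± 0.104 FPKM (log2 difference 0.42, adjusted p = 0.000116). NDUFAF5, which hydroxylates NDUFS7, was the 1 that fell, from 2.56 ± 0.254 to 1.93 ± 0.0774 FPKM (log2 difference -0.28, adjusted p = 0.00846). NDUFAF3 stood at 10.6 and 11.3 FPKM, NDUFAF6 at 2.68 and 2.74 FPKM and NDUFAF8, the partner of NDUFAF5, at 67.1 and 63.5 FPKM, and none of these was called (95% intervals -0.04 to 0.21, -0.17 to 0.22 and -0.19 to 0.03).

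In complex II, succinate dehydrogenase, the 4 subunits moved in different ways. SDHB, the iron-sulfur subunit, read 23.04, 22 and 22.7 FPKM in control libraries and 28.4, 25.8 and 29.7 FPKM in UDCA libraries (log2 difference 0.29, SE 0.052, adjusted p = 0.00144). SDHC (chromosome 1, 161314257 to 161375340), one of the 2 membrane anchors, read 14.6, 15.2 and 14.7 FPKM in control libraries and 9.09, 9.16 and 9.11 FPKM in UDCA libraries (log2 difference -0.64, SE 0.03, adjusted p = 1.14e-06). The groups of both genes are apart, SDHB higher and SDHC lower with UDCA. SDHA, the flavin subunit whose promoter holds the NRF1 letters shown above, went from 15.4 ± 0.209 to 14.3 ± 0.119 FPKM (log2 difference -0.10, adjusted p = 0.00782). Its pseudogenes, which can share its reads, summed to 10.5 FPKM in control and 14.4 FPKM with UDCA, so the small fall of SDHA is uncertain. SDHD, the other anchor, was not called, with a wide 95% interval of -0.40 to 0.29. The median over the 4 was -0.08, and it ranged from -0.13 without UDCA replicate 1 to -0.04 without control replicate 1 and 0.0026 without UDCA replicate 3.

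In complex III, which has 9 nuclear subunits in the list, 5 fell, 1 rose and 3 were not called, with a median of -0.22. The core proteins UQCRC1 and UQCRC2, which lie side by side in the matrix, went in opposite directions. UQCRC1 (chromosome 3, 48599002 to 48610976) read 49.2, 50.5 and 53.9 FPKM in control libraries and 40.5, 38.7 and 39.6 FPKM in UDCA libraries (log2 difference -0.36, SE 0.037, adjusted p = 8.44e-05). UQCRC2 (chromosome 16, 21952660 to 21983660) read 22.8, 25.5 and 23.6 FPKM in control libraries and 33.5, 32.2 and 32.4 FPKM in UDCA libraries (log2 difference 0.43, SE 0.043, adjusted p = 6.35e-05). Neither gene had overlapping groups. Of the subunits that carry electrons, CYC1, cytochrome c1, went from 46.8 ± 2.15 to 37.1 ± 0.888 FPKM (log2 difference -0.32, adjusted p = 0.00015), while UQCRFS1, the Rieske iron-sulfur protein, was not called (95% interval -0.08 to 0.14). UQCRH, the hinge protein and the member of complex III with the highest FPKM, went from 132 ± 3.21 to 93.8 ± 1.73 FPKM (log2 difference -0.49, adjusted p = 2.12e-06). UQCR10 went from 51.6 ± 3.29 to 34.99 ± 3.12 FPKM and UQCRQ from 14.04 ± 1.21 to 11.9 ± 0.457 FPKM. UQCRHL, an intronless copy of UQCRH that may share its reads, was called higher (1.63 to 2.17 FPKM, adjusted p = 0.0453); the call was lost under median-ratio scaling (0.0988) and with control replicate 1, 2 or 3 or UDCA replicate 2 or 3 left out (0.0514 to 0.136).

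In complex IV, 6 of 12 tested subunits fell, 3 rose and 3 were not called, with a median of -0.10. With median-ratio scaling 7 fell and 1 rose, and the median was -0.18; it was -0.17 without control replicate 3 or without UDCA replicate 3. The largest change was that of COX7A2L (chromosome 2, 42333546 to 42425088), also called SCAF1, which ties complex III to complex IV in supercomplexes. It read 13.8, 14.98 and 13.9 FPKM in control libraries and 44.3, 46.6 and 46.5 FPKM in UDCA libraries (log2 difference 1.62, SE 0.039, adjusted p = 4.75e-08), 3.22-fold higher with UDCA, and the groups are far apart on 4115 and 12851 reads. The other 11 tested subunits, the ubiquitous ones, lay between -0.77 and 0.12. COX8A, a small membrane-spanning subunit, went from 20.7 ± 2.64 to 11.7 ± 1.12 FPKM (log2 difference -0.77, adjusted p = 0.000319), COX7A2 from 53.9 ± 4.33 to 42.2 ± 0.533 FPKM (log2 difference -0.34, adjusted p = 0.00092) and COX6B1 from 66.4 ± 3.67 to 53.3 ± 2.56 FPKM (log2 difference -0.31, adjusted p = 0.000812). COX8A rests on 540 control and 296 UDCA reads, with 55.1% of its coding bases inside exons of another gene. Among complex IV subunits with under 10% so placed, the largest fall was -0.34. COX4I1, a subunit through which the enzyme is regulated by ATP, read 54.2, 55.2 and 53.9 FPKM in control and 52.2, 51.97 and 55.9 FPKM with UDCA, with overlapping groups and a 95% interval of -0.11 to 0.05; it was called lower with median-ratio scaling (adjusted p = 0.0155) and without UDCA replicate 3 (0.0345). COX5A and COX7C were called slightly higher (49.8 to 54.2 FPKM and 40.6 to 43.96 FPKM), and neither call held under median-ratio scaling (adjusted p = 0.530 and 0.549). COX5A also lost its call when control replicate 1, 2 or 3 or UDCA replicate 2 was left out, and COX7C without control replicate 1 or 3 or UDCA replicate 2 or 3. The fall of COX5B (64.9 to 58 FPKM) was lost without control replicate 1 or 2 or UDCA replicate 1.

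Complex IV has tissue isoforms for several subunits. The muscle and testis forms COX6A2, COX6B2, COX7A1, COX7B2 and COX8C were listed but under the filter, at group means of 0 to 0.478 FPKM. Each of their counterparts COX6A1, COX6B1, COX7A2, COX7B and COX8A passed it, at control means of 1.63 to 66.4 FPKM. The lowest, COX6A1, rests on 113 control reads, and 53.5% of its coding bases lie inside exons of another gene. Its pseudogene, which can share its reads, stood at 5.30 FPKM in control and 3.93 FPKM with UDCA, so the level of COX6A1 is uncertain. The pair NDUFA4 and NDUFA4L2 changed its make-up. NDUFA4, named for complex I but found in complex IV, read 56.1, 55.4 and 55.9 FPKM in control and 47.1, 46.9 and 48.7 FPKM with UDCA (log2 difference -0.23, adjusted p = 6.84e-05). NDUFA4L2 (chromosome 12, 57234903 to 57240715), a paralog known as a target of hypoxia signalling, read 0.5997, 0.787 and 0.623 FPKM in control libraries and 12.1, 12.6 and 12.9 FPKM in UDCA libraries (log2 difference 3.02). It passed the filter only through the UDCA libraries, so its call is a description. Its rise from 97 to 1761 reads was 18.7-fold by the ratio of means, the largest among the 85 tested members. NDUFA4L2 made up 1.06 to 1.40% of the summed level of the pair in the control libraries and 20.4 to 21.2% in the UDCA libraries, while the sum went from 56.5 ± 0.278 to 60.1 ± 1.36 FPKM.

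Most subunits sit in their complex in fixed numbers, and without the tissue isoforms the listed levels spanned from 0.227 FPKM for ATP5ME to 302 FPKM for ATP5F1B in control. The part of merged exon length in this span was not tested. The lowest levels went with overlap between annotated genes, counted here as the share of a gene's coding bases that lie within exons of another GENCODE 29 gene on either strand. Among the 79 subunit genes other than tissue isoforms, 11 had more than 50% of their coding bases so covered, and their median control level was 1.16 FPKM, with 10 of 11 under 4 FPKM. The 8 genes with 10 to 50% had a median of 3.31 FPKM, with 6 of 8 under 4. The 60 genes with under 10% had a median of 34.4 FPKM, with NDUFA3 the 1 gene under 4, at 3.74 FPKM. COX8A, with 55.1% of its coding bases covered and 20.7 FPKM, was the exception in the first class. Over all 17031 listed protein-coding genes, 5.68% had more than 50% covered. For UQCR11 the share was 100%, for NDUFB8 85.2%, for NDUFV2 84.7% and for NDUFA7 78.3%. The covering gene was most often a read-through or clone-named gene that is not listed or lies near 0, such as AC010323.1 over NDUFA7, at 0 FPKM in control and 0.0339 FPKM with UDCA. How reads in more than 1 gene were counted is not given in the sources used here, and its part in these levels was not tested. A low level of such a subunit is therefore a level of the reads assigned to it. With only the 70 tested members under 10%, 19 rose and 36 fell (median -0.18), and complex V held 10 falls and 1 rise among 13 (median -0.51).

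**Figure D4:**
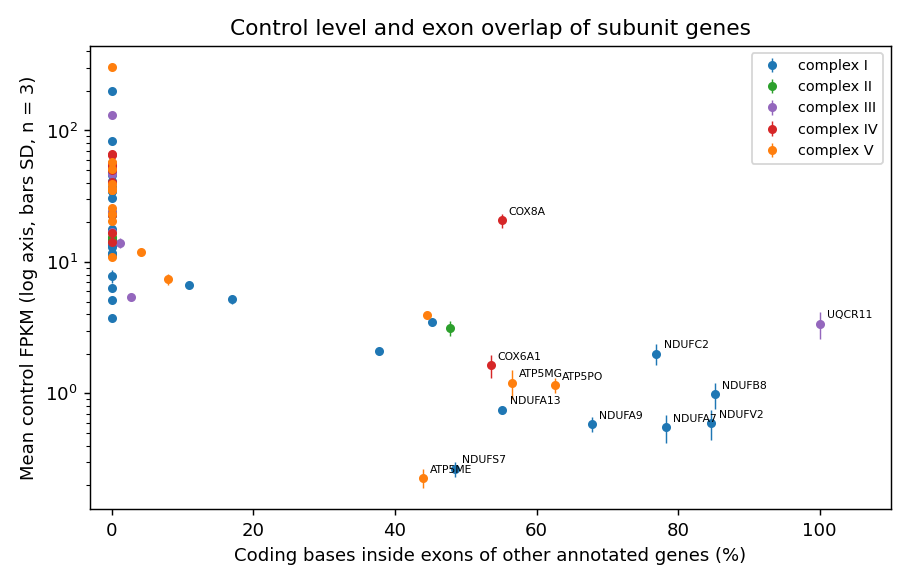
Mean control FPKM (log axis, bars SD, n = 3) of each of the 79 subunit genes other than tissue isoforms, against the share of its coding bases within exons of other annotated genes, coloured by complex. Genes past 50% lie under 4 FPKM apart from COX8A, and the genes drawn at 0% span 3.74 to 302 FPKM.

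The 13 listed members that were not tested include, tissue isoforms aside, 6 subunits with more than 10% of their coding bases covered: NDUFV2, NDUFS7, NDUFA7 and NDUFA9 of complex I and ATP5ME and ATP5MG of complex V. NDUFV2 averaged 0.595 and 0.289 FPKM in control and UDCA, NDUFS7 0.268 and 0.385 FPKM, NDUFA7 0.551 and 0.17 FPKM and NDUFA9 0.581 and 0.878 FPKM. ATP5ME averaged 0.227 and 0.424 FPKM and ATP5MG 1.202 and 0.676 FPKM. ATP5MGL, a copy of ATP5MG, held 1 read in all 6 libraries. The read-through gene ATP5MF-PTCD1, which joins a membrane subunit of ATP synthase to a neighbouring gene, held 3 reads in control and 70 with UDCA; ATP5MF itself went from 3.98 ± 0.168 to 3.26 ± 0.224 FPKM. The rest of the 13 are the 5 tissue isoforms of complex IV.

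Other genes that build, feed or regulate the chain held both rises and falls. Of 42 tested of 48 assembly factors outside the NDUFAF genes, 19 rose and 12 fell (45.2% and 28.6%), with a median of 0.08, where 45.1% and 35.7% of all genes tested did, with a median of 0.10. For complex I these were 6 rises and 2 falls among 10. TMEM126A, of the membrane arm, went from 10.6 ± 0.769 to 18.6 ± 0.752 FPKM (log2 difference 0.75, adjusted p = 1.29e-05), whereas ACAD9, which works beside NDUFAF1, went from 10.4 ± 0.294 to 6.104 ± 0.224 FPKM (log2 difference -0.68, adjusted p = 3.96e-06). For complex II there were 1 rise and 1 fall among 4, led by the assembly factor of SDHA, SDHAF4, from 4.42 to 7.81 FPKM. For complex III there were 2 rises and 2 falls among 5 tested of 6: UQCC2 went from 4.16 to 7.59 FPKM and TTC19, which clears fragments of the Rieske protein, from 11.7 to 5.59 FPKM. For complex IV there were 9 rises and 6 falls among 20 tested of 24, with COA6, a copper-handling factor, going from 6.16 to 13.7 FPKM and COX11 from 12.5 to 9.13 FPKM. COX20, counted among these falls, passed the filter only through the control libraries (1.18 to 0.56 FPKM). For complex V there were 1 rise (ATPAF1) and 1 fall (ATPAF2) among 3 tested of 4.

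The mobile carriers and other enzymes that feed coenzyme Q held 1 rise and 4 falls among 6 tested of 7 (16.7% and 66.7%, against 45.1% and 35.7% of all genes tested). GPD2, the mitochondrial glycerol phosphate dehydrogenase, read 22.4, 22.8 and 23.2 FPKM in control libraries and 8.01, 7.95 and 8.06 FPKM in UDCA libraries (log2 difference -1.40, SE 0.027, adjusted p = 1.91e-08). ETFDH, which feeds electrons from fatty acid oxidation, was the 1 that rose, from 4.24 ± 0.181 to 8.21 ± 0.791 FPKM. CYCS, cytochrome c, went from 45.3 ± 1.14 to 40.5 ± 1.904 FPKM (log2 difference -0.16, adjusted p = 0.00752). In the synthesis of coenzyme Q itself there were 5 rises and 3 falls among 10 tested of 11 (50% and 30%), near the shares over all genes tested. COQ2, which joins the ring to its isoprenoid tail, read 6.33, 6.41 and 7.15 FPKM in control libraries and 1.38, 1.21 and 0.722 FPKM in UDCA libraries (log2 difference -1.87, SE 0.12, adjusted p = 7.62e-06), with every UDCA library far below every control library. COQ5, a methyltransferase of the same pathway, went from 8.75 ± 0.352 to 14.1 ± 0.577 FPKM.

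Among the regulators of these genes, 4 rose and 3 fell of 8 tested of 9 (50% and 37.5%), near the shares over all genes tested. ESRRA, the estrogen-related receptor alpha, read 11.5, 12.5 and 11.6 FPKM in control libraries and 28.6, 30.7 and 30.5 FPKM in UDCA libraries (log2 difference 1.27, SE 0.043, adjusted p = 2.52e-07). PPRC1, a coactivator of the PGC-1 family, went from 10.2 ± 0.332 to 20.01 ± 0.439 FPKM. PPARGC1B, another, passed the filter only through the UDCA libraries and went from 0.3503 ± 0.00726 to 1.75 ± 0.0266 FPKM. PPARGC1A was under the filter, at 0.139 and 0.116 FPKM. TFAM, which packages the mitochondrial genome and takes part in its transcription, went from 12.2 ± 0.575 to 8.33 ± 0.374 FPKM (log2 difference -0.50, adjusted p = 5.48e-05). GABPA went from 8.98 ± 0.24 to 7.33 ± 0.598 FPKM (log2 difference -0.26, adjusted p = 0.00454). GABPB1, of the same list, rose from 4.03 ± 0.426 to 7.67 ± 0.281 FPKM (log2 difference 0.79, adjusted p = 3.04e-05). YY1 went from 15.3 ± 0.274 to 13.2 ± 0.382 FPKM (log2 difference -0.21, adjusted p = 0.000731). NRF1 was not called (6.86 and 6.59 FPKM, 95% interval -0.21 to 0.12). Against these, all 13 protein genes of the mitochondrial genome, which encode the remaining subunits of complexes I, III, IV and V, were lower, with a median log2 difference of -6.70. Of all genes tested, 35.7% were lower. MT-ATP8 passed the filter only through the control libraries, so its call is a description. It read 19.2, 2.25 and 1.91 FPKM in control and 0 in every UDCA library.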

How the data were processed

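Libraries of 3 control and 3 UDCA samples were analysed, grouped by their titles. They were polyA libraries made with the TruSeq RNA Sample Prep Kit, per the labels' protocols; this kit does not mark strand. HISAT2, Bowtie2 2.0.6 and GRCh38 are named in the submitters' processing notes. How reads in overlapping genes or in several places were counted was not given in the sources used here, and neither was the counting program. Deposited values are FPKM, as inferred from the values: multiplied by merged exon length, 100% came out as whole reads within 0.01.

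Genes with at least 1 FPKM in 3 libraries were tested on log2(FPKM + 1) with limma-trend (limma 3.58.1, R 4.3.3), 2-sided, Benjamini-Hochberg adjusted over 14380 genes at 0.05. Tables, overlaps and figures used Python 3.11.15, pandas 2.3.3 and matplotlib 3.10.9. The script was tested on simulated data. Symbols, positions and overlaps came from GENCODE 29, promoters from RefSeq, with the first window listed for a gene. Pairs of replicates had a chi-square per degree of freedom of 1.67 to 2.73, above counting noise, so none was treated as the same library deposited again. Alternatives were quantile and median-ratio scaling, no filter, a pseudocount of 0.1, a replicate block, voom on recovered reads, and leaving out each library; the restriction to members with under 10% coding overlap was chosen after seeing the data.

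Members, lists and tests were chosen with earlier results of these data known. Named in the text are the 3 largest called rises and falls per complex and class with at least 2 FPKM, core subunits, isoform families, assembly factors, and the extremes of 8 wider lists. Others (such as the remaining F1, stalk, c1, Rieske and regulator genes) were named for their role after their values were seen. The values of 1 member are not reported here.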

Additional observations from a re-analysis of the deposited data

How the results depend on the processing

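Of the 63 called members, 56 kept their call in every alternative; the other 7 were ATP5PO, COX5A, COX5B, COX7C, NDUFB5, NDUFB9 and UQCRHL, and no called member reversed. Rises in complex IV numbered 1 with median-ratio scaling, 1 with no filter and 1 to 3 with a library left out, against 3 as reported. Rises in complex V numbered 2 with no filter, and falls among the NDUFAF genes 2 with median-ratio scaling. That scaling, under which the median of all genes tested was 0.02, also moved the median of complex II to -0.15 (-0.13 with quantile normalization) and the summed levels to 83.1% (I), 91.2% (II), 74.9% (III), 90.7% (IV) and 62.0% (V) of control. Without each library in turn, the sum of complex V stayed at 65.4 to 66.5% and that of complex IV at 94.5 to 98.5%. Voom on recovered reads called 20 members higher and 46 lower.

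The replicate numbers did not pair the samples: same-numbered deviations correlated at -0.0012 to 0.0143. With the replicate number as a block, 19 members were called higher and 43 lower, against 20 and 43 without it, and complex I held 8 rises and 17 falls. Depth limits the low genes: NDUFA7, ATP5ME and the tissue isoforms rest on 40 reads or fewer per group. They did not pass the filter, and nothing is called for them with it. The added rise of complex V with no filter was that of ATP5ME, on 11 control and 20 UDCA reads.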
